A study of Mus musculus with 2 samples.

Results

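The cells described here carry the authors' cell label Conj in the deposited cell table and are taken as conjunctival cells. They number 905 of 17808 cells, 465 of the 9605 control cells and 440 of the 8203 diabetic cells. They came from a single-cell RNA sequencing study of the corneal epithelium that asked how diabetes changes its cells. Both groups were male C57BL/6J mice aged 20 weeks. Diabetes was induced with 1 injection of streptozotocin, a toxin of the pancreatic beta cell, at 160 mg/kg, and mice counted as diabetic stayed above 250 mg/dL of blood glucose for 12 weeks. Control mice received sodium citrate buffer at pH 4.5. Each group was 1 library, made from 4 pooled corneas of 2 mice, so there is no replicate and no test between groups, and the intervals given cover counting error only. A difference between the libraries cannot be told apart from a difference between pools, dissections or library preparations.

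The conjunctiva is the mucous membrane that lines the eyelids and covers the white of the eye up to the limbus, the rim where it meets the cornea. Its stratified epithelium makes keratins of mucosal type, carries membrane mucins that hold the tear film, and contains goblet cells that secrete gel-forming mucin. The limbus houses the stem cells of the corneal epithelium, and the mature cornea is marked by the keratin Krt12. A corneal dissection can carry a rim of conjunctiva with it.

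Counts are of unique molecular identifiers (UMIs), tags that let copies of a captured molecule be counted once. They were summed over the cells of a label in each library and are given as CPM, the count scaled to a common total of UMIs per sum. Conj cells held 11110166 UMIs in control and 11157926 in diabetic mice, with medians of 22157 and 23388.5 UMIs per cell. Their median mitochondrial share was 1.64% in both libraries. Likely doublets made up 5.38% of control and 8.41% of diabetic Conj cells. The 2 libraries shared 18 cell barcodes, and 2 Conj cells carried one of them. LSC cells numbered 202 in control and 331 in diabetic mice, and Squam cells 1587 and 1347. The authors' labels are used as deposited, and the way they were assigned is not given in the sources used here. If they came from clustering these counts, the genes that set Conj apart also shaped the label, so the differences between labels are descriptions with no test.

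The keratins Krt19 and Krt4, both known from conjunctival epithelium, were higher in Conj cells than in each of the other 6 epithelial labels. Krt19, a small keratin of simple and mucosal epithelia, stood at 3414 CPM in Conj cells of the control library and 3592 CPM in those of the diabetic library. Squam cells had 310 and 315 CPM and LSC cells 146 and 196 CPM. The mean over both libraries was 11.2 times that of Squam, the next highest label. Krt4, a keratin of non-cornified stratified epithelia, stood at 3661 CPM in control Conj cells, against 5909 CPM in diabetic ones. Its mean was 6.51 times that of LSC, which came next with 655 and 816 CPM.

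**Figure D1:**
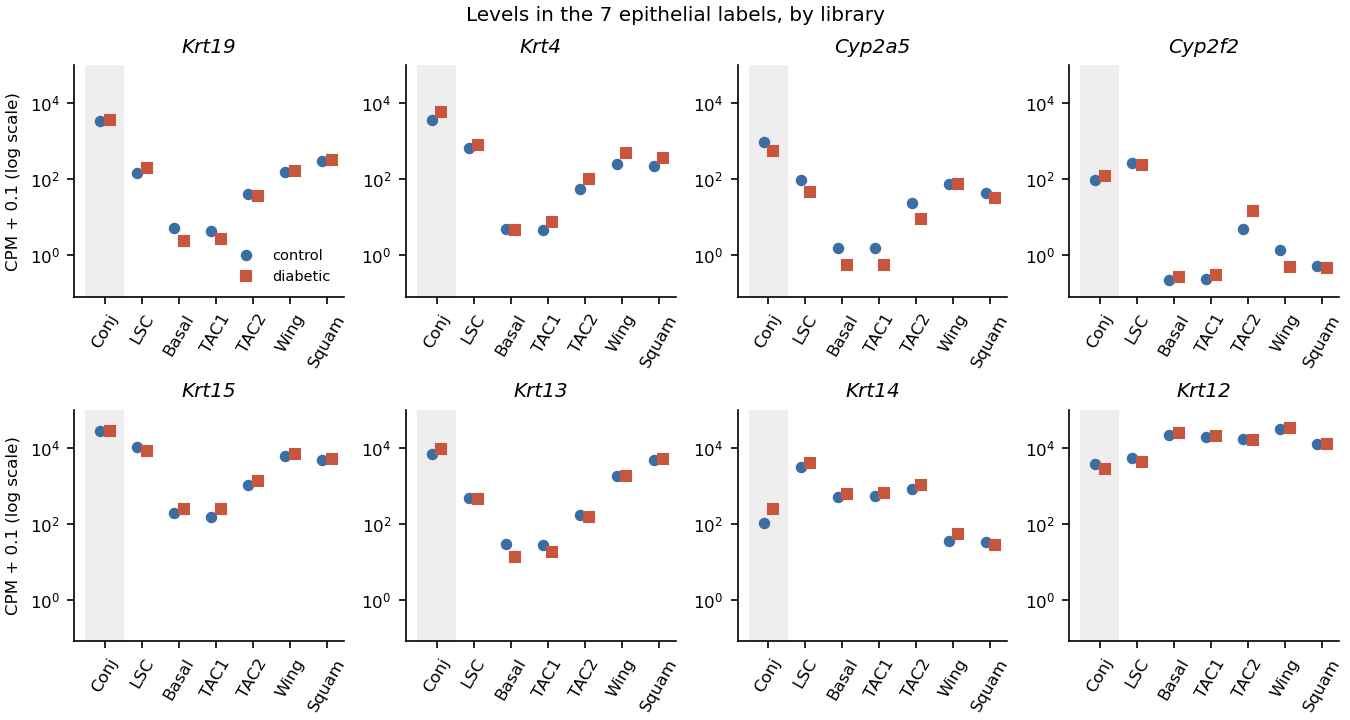
Summed level (CPM plus 0.1, log axis) of 8 genes in the 7 epithelial labels, 1 point per library. Krt19, Krt4, Cyp2a5, Krt15 and Krt13 are highest in Conj, Cyp2f2 and Krt14 in LSC, and Krt12 is lowest in Conj.

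Most single cells of the label carried both keratins. At a common depth of 5000 UMIs, reached by random thinning, 91.2% of control Conj cells (412 of 452, exact 95% interval 88.1 to 93.6%) and 89.5% of diabetic Conj cells (385 of 430, 86.2 to 92.3%) had a Krt19 UMI. The unthinned shares were 93.3% and 93.2%. In Basal cells, which served as the background for free RNA, the thinned shares were 2.45% and 0.992%, from median depths of 13146 and 14438.5 UMIs. Krt4 was seen in 96.2% of control and 98.8% of diabetic Conj cells after thinning, against 2.37% and 1.77% of Basal cells. The thinned shares in LSC cells were 48.5% and 54.2% for Krt4 and 18.3% and 13.2% for Krt19. In Squam cells they were 23.8% and 25.7% for Krt4 and 34.8% and 31.4% for Krt19. Both keratins were found together in 87.8% and 89.1% of Conj cells, and in 12.7% and 11.9% of Squam cells.

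Of the marker cytochrome Cyp2f2, a P450 enzyme known from airway secretory cells, Conj cells did not hold the highest level. It stood at 98.1 and 124 CPM in Conj cells, at 267 and 236 CPM in LSC cells and at 0.436 and 0.360 CPM in Squam cells. After thinning, 23.5% of control (19.6 to 27.6%) and 25.8% of diabetic Conj cells (21.7 to 30.2%) had a Cyp2f2 UMI, and 34.6% and 38.6% did before it. The thinned shares in Basal cells were 0.0846% and 0.173%. Cyp2f2 was thus detected in a minority of Conj cells, at a share far above that of Basal cells.

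Cyp2a5, a neighbour of Cyp2f2 on chromosome 7, was highest in Conj cells in both libraries. Cyp2a5, the mouse enzyme that hydroxylates coumarin and nicotine, stood at 957 CPM in control Conj cells, against 553 CPM in diabetic ones. Wing cells came next by the mean, with 74.5 and 75.1 CPM, and LSC cells had 97.8 and 45.0 CPM. Cyp2a5 lies at chr7:26835305-26843548 and Cyp2f2 at chr7:27119909-27133660, both on the plus strand of GRCm38, within 298 kb. Other Cyp2 genes at lower coordinates of chromosome 7 were low in Conj cells: Cyp2s1 stood at 3.78 and 1.70 CPM and Cyp2b19 at 1.08 and 3.495 CPM. Cyp2a4, a close paralog of Cyp2a5, had 1 count in control and 0 in diabetic Conj cells. The promoter-proximal sequences of the Cyp2a pair and of Cyp2f2 are shown because their levels in Conj cells differ so widely. Each is 200 bases of the plus strand, from RefSeq on GRCm38.p6. Those of Cyp2a5 (chr7:26835105-26835304) and Cyp2f2 (chr7:27119709-27119908) lie directly before the start of the gene. That of Cyp2a4 (chr7:26306959-26307158) is the stretch that aligns without gaps to the Cyp2a5 window. It ends shortly before the start of Cyp2a4 at chr7:26307169. Capitals mark the 4 bases at which Cyp2a4 and Cyp2a5 differ.
Cyp2a4: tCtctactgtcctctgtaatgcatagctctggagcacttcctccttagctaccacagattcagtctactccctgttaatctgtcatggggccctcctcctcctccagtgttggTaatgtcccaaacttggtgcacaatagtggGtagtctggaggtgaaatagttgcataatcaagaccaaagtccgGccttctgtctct
Cyp2a5: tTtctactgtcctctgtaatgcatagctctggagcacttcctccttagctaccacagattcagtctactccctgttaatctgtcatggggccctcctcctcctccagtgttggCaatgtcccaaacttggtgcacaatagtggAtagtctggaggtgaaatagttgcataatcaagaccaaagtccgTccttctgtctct
Cyp2f2: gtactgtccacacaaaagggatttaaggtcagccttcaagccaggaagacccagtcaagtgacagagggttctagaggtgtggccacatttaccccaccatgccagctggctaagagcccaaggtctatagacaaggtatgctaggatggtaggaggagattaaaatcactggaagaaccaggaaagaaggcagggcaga
Over these windows Cyp2a4 and Cyp2a5, once aligned, were 98% identical. Cyp2f2 was not aligned to Cyp2a5, and the 2 windows set base by base matched at 27% of positions. The 27% is therefore not a like measure to the 98% and does not measure how similar the 2 sequences are. The transcripts of Cyp2a5 and Cyp2a4 also resemble each other: 37.4% of the 60-base words in the last 500 bases of Cyp2a5 transcripts occur in another gene. The division of counts between Cyp2a4 and Cyp2a5 is therefore uncertain.

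Beyond these, 12 further genes were named for being highest in Conj among the 7 epithelial labels. Krt15, a keratin of basal and stem cells of stratified epithelia, stood at 26994 and 27484 CPM, with LSC next at 10177 and 7937 CPM. Krt16, a keratin of activated epithelia, had 112 and 155 CPM against 26.0 and 20.3 CPM in Squam cells. Krt8, a keratin of simple epithelia, had 106 and 87.4 CPM against 16.1 and 24.1 CPM in LSC cells. Upp1, which cleaves uridine, had 579 and 392 CPM, and Squam followed with 158 and 64.3 CPM. The secreted glycoprotein Olfm4 was low, at 30.4 and 44.1 CPM, and lower still in Squam cells at 4.90 and 3.60 CPM. The EGF receptor ligand Areg stood at 71.1 and 60.9 CPM, the dNTP hydrolase Samhd1 at 123 and 108 CPM and the folate hydrolase Ggh at 367 and 301 CPM. The others were Arhgdib, Oit1, Fut9 and Pfn2, whose means were between 3.20 and 5.05 times that of the next label. Krt13, Krt15 and Krt19 are neighbours on the minus strand of chromosome 11, within 31.3 kb, and all were highest in Conj.

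The fixed list of conjunctival markers was split when set against LSC. A gene was called different between labels when it differed at least 2-fold in the same direction in both libraries, with exact Poisson intervals apart in each and 50 or more counts over the sums. By that rule 6 of 12 conjunctival markers were higher in Conj than in LSC cells and 4 were lower. The lower ones were Krt18, Wfdc2, Wfdc18 and Cldn10. Wfdc2, a secreted protease inhibitor of mucosal epithelia, had 101 and 150 CPM in Conj against 525 and 775 CPM in LSC cells. Against Squam, 7 of 11 conjunctival markers were higher and 2 were lower, and 5 and 2 when sums were scaled by median of ratios in place of total counts.

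Goblet cell markers were low or shared with other labels. Spdef and Foxa3, transcription factors of the goblet lineage, had no count in Conj cells, and Tff1, a peptide secreted with mucin, had 0.0900 and 0.0896 CPM. Agr2, a disulfide isomerase needed for mucin folding, stood at 51.8 and 58.0 CPM, beside 34.9 and 46.9 CPM in LSC cells. Bcas1 and Galnt12 were higher than in LSC cells, at 58.0 and 68.5 CPM and at 17.0 and 16.9 CPM, and Bcas1 was lower than in Squam cells. The gel-forming mucin genes Muc5ac and Muc5b were not analysed here. Of the 8 immune markers 6 were at 0 in Conj cells, Ptprc and Cd74 among them, and the list summed to 0.0900 and 0.269 CPM. The stromal marker Dcn had no count in Conj cells, and the neutrophil marker S100a9 had 2.16 and 8.78 CPM. The matrix holds only 1 of 6 stromal, 3 of 6 neutrophil and 8 of 12 goblet markers, so the rest could not be seen. Of the epidermal list, Krt10 had 31.8 and 31.5 CPM and Krt1 15.6 and 11.9 CPM, while Flg, the filaggrin gene, was at 0.

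The corneal keratin Krt12 was lower in Conj than in every other epithelial label, yet not absent. It stood at 3775 and 2691 CPM in Conj, 5443 and 4120 CPM in LSC, 12230 and 12520 CPM in Squam and 30116 and 32219 CPM in Wing cells. Over Conj cells of 5000 or more UMIs the median per cell was 759 CPM (control) and 292 CPM (diabetic), and the 90th percentile was 11331 and 10151 CPM, so Krt12 varied widely within the label. The 26 control and 10 diabetic cells labelled Immune, which should lack Krt12, held 7411 and 764 CPM of it. The part of free corneal RNA in the Krt12 of Conj cells was not tested.

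Against LSC cells, Conj cells were higher in suprabasal keratins, membrane mucins and surface proteins and lower in limbal and basement membrane genes. By the rule above 732 of 10440 genes (7.01%) were higher in Conj and 2498 (23.9%) were lower. Median-of-ratios scaling raises every Conj to LSC ratio by 0.40 on the log2 scale in control and 0.36 in diabetic cells, and then 1170 genes were higher and 1626 lower. The 12 named genes in each direction kept their direction and call under both scalings. Nccrp1, an F-box protein of stratified squamous epithelia, had 1085 and 1131 CPM in Conj against 20.2 and 12.6 CPM in LSC cells. Asprv1, a protease that processes filaggrin in skin, had 6641 and 8621 CPM against 228 and 169 CPM. Pglyrp1, a secreted bactericidal protein, had 4902 and 4761 CPM against 249 and 232 CPM.

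Keratins of the suprabasal layers followed the same order. Krt13, the partner of Krt4 in mucosal epithelia, had 6957 and 9226 CPM in Conj against 464 and 452 CPM in LSC cells, and Krt6b had 5238 and 5314 against 362 and 225 CPM. In all, 12 of 17 keratins were higher and 2 lower, Krt14 and Krt18, under both scalings. Of 9 membrane mucin and glycocalyx genes 6 were higher and none lower under both scalings. Muc4, a transmembrane mucin of the ocular surface, had 1287 and 1483 CPM against 92.7 and 66.7 CPM. Of 14 tight junction genes 8 were higher, Cldn7 and Cldn4 among them, and 3 were lower. The other named genes were Ifit1bl1, Psca, Cysrt1, Ripply3, Krt19 and Enpp3, with means between 20.5 and 107 times those of LSC cells.

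Enzymes of cholesterol synthesis were higher in Conj than in LSC cells for 15 of 19 members and lower for none, and for 17 under median-of-ratios scaling. The list's median log2 ratio after adding 10 CPM was 1.58, beside -0.29 over all 10440 genes. Fdps, which makes farnesyl diphosphate, is a member at 1106 and 1027 CPM in Conj cells. Between Conj and Squam cells 1 member was higher and 1 lower, with a median of 0.09.

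Lower in Conj than in LSC were genes of the basal and limbal compartment. Krt14, the basal cell keratin, had 104 and 245 CPM against 3016 and 3978 CPM. Gpha2, a glycoprotein hormone subunit that marks limbal stem cells, had 80.7 and 162 CPM against 2875 and 2050 CPM. Apoe, a lipid carrier, had 101 and 176 CPM against 3606 and 3134 CPM, and Igfbp2, which binds insulin-like growth factors, had 1.62 and 5.83 against 222 and 406 CPM. Of the 10 limbal markers 8 were lower and 1, Krt15, was higher. Hemidesmosome and basement membrane genes were lower for 10 of 13 members, Itgb4 and Col17a1 among them, and S phase genes for 11 of 14. Both the limbal and the hemidesmosome counts were the same under median-of-ratios scaling. The remaining named genes were Id3, Ifitm3, Slc6a6, Ftl1, Lgals7, Igfbp7, Fndc1 and Kitl, of which Ftl1 shares 69.1% of its 3′ words with pseudogenes and is uncertain. Ribosomal protein genes were lower for 20 of 23 members by total counts and for 10 by median of ratios.

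**Figure D2:**
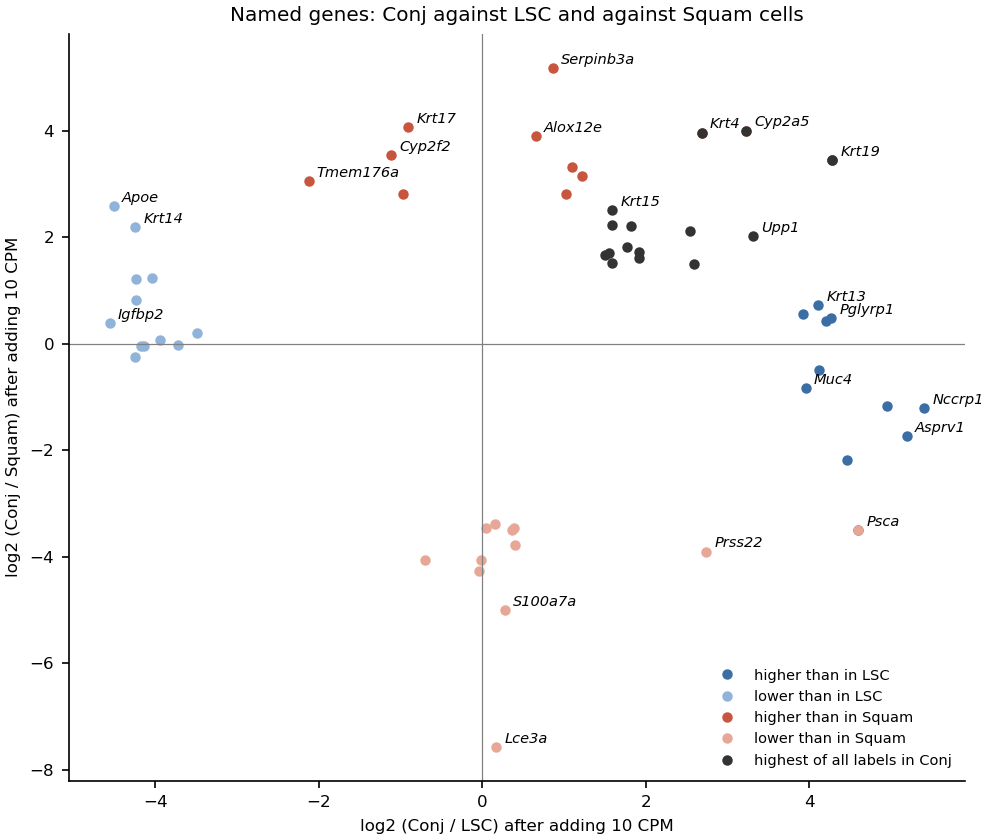
Each named gene by its log2 ratio of Conj over LSC (horizontal) and Conj over Squam (vertical), means of both libraries after adding 10 CPM. Krt19, Krt4 and Cyp2a5 lie high on both axes, Krt14 and Apoe are low against LSC and high against Squam, and Psca and Asprv1 show the opposite.

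Against Squam cells, Conj cells were higher in several keratins, P450 enzymes and lipoxygenases and lower in genes of the terminal surface. By the same rule 1907 of 11004 genes (17.3%) were higher in Conj and 615 (5.59%) were lower. Median-of-ratios scaling lowers these ratios by 0.45 in control and 0.52 in diabetic cells on the log2 scale, and the counts became 784 higher and 1068 lower. Serpinb3a, a serpin that inhibits proteases, had 450 and 428 CPM against 3.56 and 1.11 CPM. Krt17, a keratin of appendages and activated epithelia, had 149 and 269 CPM against 4.54 and 1.57 CPM. Alox12e, an epidermal-type lipoxygenase, had 184 and 375 CPM against 6.43 and 12.3 CPM. Acsm1, a medium-chain acyl-CoA synthetase, had 304 and 284 CPM against 34.4 and 32.2 CPM. Krt4, Krt19, Cyp2a5, Cyp2f2, Alox15, Rgcc, Tmem176a and Gpc3 completed the named genes.

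The genes lower than in Squam were led by late cornified envelope and surface genes. Lce3a, a late cornified envelope protein, had 5.85 and 6.27 CPM in Conj against 3013 and 3067 CPM in Squam cells. Psca, a GPI-anchored Ly6 protein, had 2295 and 3803 CPM against 28930 and 40529 CPM. Lypd2, another Ly6 protein, had 2084 and 667 CPM against 19258 and 18593 CPM. Of 9 squamous surface markers 7 were lower than in Squam and none higher, and 8 were lower under median of ratios. The others named were S100a7a, Crct1, Lce3b, Slurp1, Prss22, Cd274, Alpl, Lce3f and Il4i1. The Lce3 genes resemble each other in sequence (42.4% of the 3′ words of Lce3f occur in another gene), so their separate levels are uncertain.

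Detoxifying enzymes were another difference from Squam. Of 21 measured xenobiotic and detoxifying genes 13 were higher in Conj and none lower by total counts, and 7 were higher by median of ratios. Cbr2, a carbonyl reductase, is a member at 3258 and 2841 CPM in Conj cells, and Gsta4, a glutathione transferase for lipid aldehydes, is another at 16625 and 13621 CPM. Against LSC 5 members were higher and 8 were lower.

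Within the label, Leiden clustering on library-centred values gave 6 sub-clusters, which are numbered and not named as cell types. Sub-cluster 1 held 160 control and 122 diabetic cells and was led by Krt16, Sprr1a, Krt19, Cyp2a5, Areg and Akr1b7. Its Krt19 was 5283 CPM and its Cyp2a5 1102 CPM. Sub-cluster 2, of 121 and 94 cells, was led by Lars2, Lgi2, Epas1, Cd44, Fabp5 and F3, and its median depth was lower, at 16168 and 15752.5 UMIs. Its Krt12 was 6899 CPM and its Krt19 1818 CPM, the lowest of the 6 sub-clusters. The corneal marker list summed to 17421 CPM in it and the conjunctival list to 12416 CPM. Sub-cluster 3, of 83 and 97 cells, was led by Ifit1bl1, Tspan1, Plekhs1, Krt23, Chac1 and Ly6a. Over 13803 genes its profile correlated most closely with that of Squam cells (Pearson r 0.969 on log values, across genes that are not independent). For the other 5 sub-clusters the closest label was Wing.

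Sub-cluster 4, of 44 and 45 cells, was led by Lypd2, Psca, Lynx1, Guca1a, Aqp5 and Ly6g6c. Sub-cluster 5, of 24 and 46 cells, was led by Alox15, Cyp2f2, Tmem176b, Csrp2, Lgals7 and Tmem176a. Its Cyp2f2 was 667 CPM, from 1036 counts, and the next highest level was 201 CPM in sub-cluster 2, from 700 counts. Its profile had r 0.949 with Wing and 0.931 with LSC. Under 3 other clustering settings, 100%, 100% and 98.6% of these cells stayed in a common cluster, which in 2 of them also held other cells. Sub-cluster 6, of 33 and 36 cells, was led by Dapl1, Slurp1, Slc6a6, Col17a1, Mt2 and Mt1, and 60.6% and 69.4% of it were likely doublets. Its Krt12 was 10993 CPM, beside 6899 CPM in sub-cluster 2 and 4062 CPM in sub-cluster 4.

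In diabetic Conj cells the lipoxygenase Alox15, the glucocorticoid-induced gene Fkbp5 and several keratins were higher, and the neighbouring Ly6 genes Lypd2 and Slurp1 were lower. A gene was called by size alone: it had to differ at least 1.5-fold, hold 50 or more counts over both sums and have exact Poisson intervals that do not overlap, which is named the rule of size here. Of 9319 measured genes 235 (2.52%) were higher and 182 (1.95%) lower, and the median log2 ratio of all was 0.02. By the same rule LSC had 225 and 224 of 8567 genes and Squam 185 and 799 of 10313. The genes named below, 15 higher and 14 lower, were among the largest in ratio after adding 10 CPM among called genes of 20 CPM or more.

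**Figure D3:**
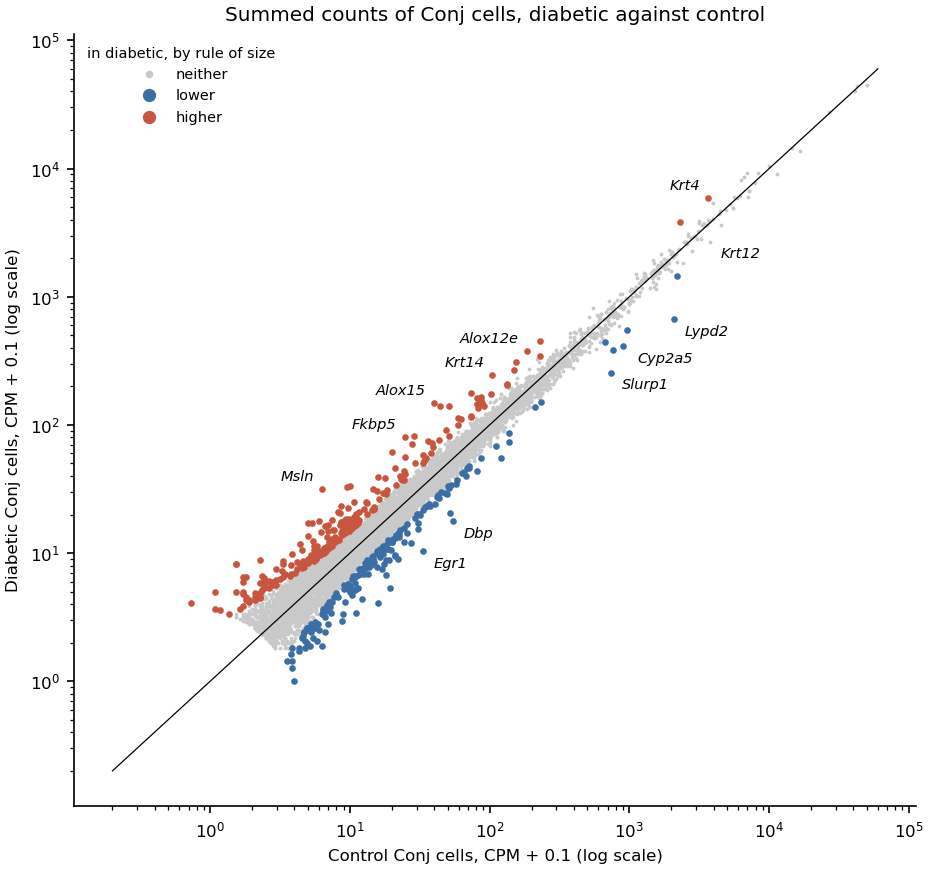
Each measured gene in Conj cells by its control (horizontal) and diabetic (vertical) level, CPM plus 0.1 on log axes, with genes past the rule of size coloured and equality as a line. Alox15, Fkbp5 and Krt4 lie above the line, Lypd2 and Slurp1 below it.

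Lipoxygenases add oxygen to polyunsaturated fatty acids and make mediators that start or resolve inflammation. Alox15, the 12/15-lipoxygenase, rose from 40.1 to 147 CPM, 3.67-fold (95% interval 3.30 to 4.08). The thinned share of Conj cells with an Alox15 UMI was 6.86% (4.71 to 9.59%) in control and 18.6% (15.04 to 22.6%) in diabetic mice. Alox12e rose from 184 to 375 CPM, 2.04-fold (1.93 to 2.15). The pair sits on the minus strand of chromosome 11, within 36.4 kb. All 7 measured members of the list of lipoxygenases and prostanoid genes were above a ratio of 1, and 2 passed the rule, with a median log2 ratio of 0.33. Alox12 had 76.0 and 88.9 CPM, Ptgs1 20.6 and 26.0 CPM and Ptges 3.06 and 5.11 CPM, none past the rule.

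Alox15 and Alox12e were also among the leading genes of sub-cluster 5. Within sub-cluster 5, Alox15 had 489 CPM (control) and 753 CPM (diabetic). In sub-clusters 1 and 3 it went from 18.6 to 110 and from 20.2 to 106 CPM. Without sub-cluster 5 the log2 ratio of Alox15 was 2.10 and that of Alox12e 1.02, against 1.88 and 1.03 with it. When every sub-cluster had equal weight, Alox12e fell short of the rule, with a log2 ratio of 0.43.

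Fkbp5, a chaperone of the glucocorticoid receptor and a classical target of it, rose from 24.7 to 80.3 CPM, 3.26-fold (2.84 to 3.74). It was higher in 7 of 7 epithelial labels and passed the rule in 6 of 6 sub-clusters. Tsc22d3, which encodes the glucocorticoid-induced leucine zipper, rose from 20.9 to 45.8 CPM, the cell cycle inhibitor Cdkn1c from 8.10 to 20.9 CPM and the NF-kappa-B inhibitor Nfkbia from 39.1 to 66.9 CPM. These were 4 of 12 measured members of the list of glucocorticoid-induced genes, and none was lower by the rule. The clock gene Per1 had 8.37 and 6.54 CPM, Dusp1 78.8 and 60.7 CPM and Sgk1 122 and 117 CPM. The list's median log2 ratio was 0.10, and -0.04 without likely doublets.

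Chit1, a secreted chitinase, rose from 44.1 to 140 CPM, 3.17-fold (2.86 to 3.51), in 7 of 7 labels and 6 of 6 sub-clusters. Msln, a GPI-anchored protein of mesothelium, rose from 6.21 to 31.5 CPM, 5.08-fold (3.91 to 6.67). Rgcc, a regulator of the cell cycle, rose from 51.5 to 139 CPM and the mitochondrial citrate carrier Slc25a1 from 73.5 to 177 CPM. Hspb8, a small heat shock protein, rose from 9.36 to 32.5 CPM and Spink5, an inhibitor of epidermal kallikreins, from 155 to 308 CPM. Phgr1 rose from 20.1 to 60.9 CPM and Rdh16, a retinol dehydrogenase, from 15.7 to 39.3 CPM.

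Some solute transport genes were among the larger changes. In the list of ion and water transport genes 2 of 8 measured members were higher by the rule and none lower. Of the 8, 4 were above and 4 under a ratio of 1, with a median log2 ratio of 0.20. The sodium pump subunit Atp1b1 rose from 9.99 to 33.5 CPM, 3.35-fold (2.71 to 4.19), and the epithelial sodium channel subunit Scnn1a from 17.6 to 38.6 CPM. The taurine transporter Slc6a6 rose from 27.9 to 70.5 CPM, 2.53-fold (2.21 to 2.89), and the amino acid transporter Slc38a2 from 62.1 to 111 CPM. Slc6a6 was higher in 6 of 6 sub-clusters. It was highest in sub-cluster 6, at 159 and 438 CPM from 726 counts, where 60.6% and 69.4% of cells were likely doublets. In the other sub-clusters it was at 56.4 CPM or less in either library. Slc6a6 and Slc38a2 are targets of the osmotic stress factor Nfat5. So is Akr1b3, the aldose reductase that turns glucose into sorbitol, which fell from 667 to 440 CPM. In the osmotic stress list 3 of 5 measured members were higher, Hspa4l being the other, and 1, Akr1b3, was lower. Members of that list thus did not move together. The peptide transporter Slc15a2 fell from 51.6 to 20.6 CPM.

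Keratins were higher more than lower. Krt4 rose 1.61-fold (1.59 to 1.63) from the levels given above. It was higher in 6 of 6 sub-clusters and passed the rule in 5. Krt14 rose from 104 to 245 CPM, 2.35-fold (2.19 to 2.52), and passed the rule in 6 of 6 sub-clusters. Krt17 rose from 149 to 269 CPM over all Conj cells, but in sub-cluster 3 it fell from 36.6 to 11.004 CPM. Krt75, a companion layer keratin outside the list, rose from 28.7 to 81.4 CPM. Krt19 had a ratio of 1.05 (1.04 to 1.07), Krt13 of 1.33 (1.31 to 1.34) and Cyp2f2 of 1.27 (1.17 to 1.37), none past the rule. By sub-cluster Cyp2f2 was higher in 3 and lower in 3. In sub-cluster 5, where Cyp2f2 was highest, it went from 816 to 599 CPM, and in sub-cluster 2 from 157 to 259 CPM. Sub-cluster 5 made up 5.16% of control and 10.5% of diabetic Conj cells. Of 17 measured keratins 3 were higher by the rule and none lower, with a median log2 ratio of 0.31 and 14 of 17 above a ratio of 1.

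Of the cornified envelope list 3 of 9 were higher, the cross-linked precursor Sprr1a (24.6 to 55.7 CPM), the transglutaminase Tgm1 (33.7 to 52.3 CPM) and Sbsn (23.2 to 37.9 CPM), with a median of 0.52. The limbal marker list had 6 of 10 members higher and none lower, with a median of 0.77. Gpha2 went from 80.7 to 162 CPM, Apoe from 101 to 176 CPM and Igfbp2 from 1.62 to 5.83 CPM, all still far under the LSC levels. Gpha2 also went from 115 to 254 CPM in Basal and from 33.7 to 58.6 CPM in Squam cells, while in LSC cells it went from 2875 to 2050 CPM. In Immune cells the summed limbal markers went from 1395 to 7102 CPM, of which Apoe was 541 and 6465 CPM, and Gpha2 had 1 and 0 counts. LSC cells were 2.10% of the control library and 4.04% of the diabetic library, and the part of free or doublet RNA from them in these values was not tested. Of 4 measured G2 and M phase genes 3 were higher, at levels under 5 CPM in both libraries, and in S phase 1 of 11.

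Among Ly6 family genes, Lypd2, Slurp1 and Lynx1 fell and Psca rose, and Ly6g6c (log2 ratio 0.19) and Lypd3 (-0.15) did not pass the rule. Lypd2 fell from 2084 to 667 CPM, a control to diabetic ratio of 3.12 (3.04 to 3.21), and was lower in 7 of 7 labels. Slurp1, a secreted Ly6 protein that acts on nicotinic receptors, fell from 742 to 256 CPM, a ratio of 2.90 (2.78 to 3.03). Lynx1, a membrane-bound relative, fell from 22.1 to 8.96 CPM. Psca rose from 2295 to 3803 CPM over all Conj cells, 1.66-fold (1.63 to 1.68). By sub-cluster it was higher in 3 and slightly lower in 3. It passed the rule only in sub-cluster 1 (120 to 300 CPM) and sub-cluster 3 (5395 to 10771.5 CPM). In sub-cluster 4 it had 8529 and 8209 CPM. The 4 genes lie within 38.2 kb of chromosome 15, at 74714839-74717069 (Psca, plus strand), 74724318-74728034 (Slurp1), 74732247-74734329 (Lypd2) and 74747852-74753046 (Lynx1), the last 3 on the minus strand.

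Lypd2 was lower in all 6 sub-clusters, from 8139 to 2394 CPM in sub-cluster 4, where it was highest, and from 1629 to 104 CPM in sub-cluster 3. In Squam cells, where Lypd2 is most abundant, the values were 19258 and 18593 CPM. Cells labelled Immune, which should lack both genes, held 2602 and 287 CPM of Lypd2 and 2331 and 510 CPM of Slurp1, in 26 and 10 cells. The part of free RNA in the fall in Conj cells was not tested. The thinned share of Conj cells with a Lypd2 UMI was 61.3% in control and 41.9% in diabetic mice. Krt12, with Immune levels given above, had a ratio of 0.713 (0.703 to 0.724) over all Conj cells and did not pass the rule. It was lower in 5 of 6 sub-clusters, and passed the rule as lower in sub-clusters 1, 3, 4 and 5.

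Several enzymes and regulators were also lower. Cyp2a5 fell from 957 to 553 CPM, a control to diabetic ratio of 1.73 (1.68 to 1.79), and in sub-cluster 5 from 2283 to 593 CPM. Akr1b7, an aldo-keto reductase of lipid aldehydes, fell from 903 to 414 CPM and passed the rule in all 6 sub-clusters. Immune cells, with only 96077 and 31401 UMIs in 26 and 10 cells, held none of its counts. The part of free RNA in its fall was not tested. Slpi, an antiprotease of mucosal fluids, fell from 81.5 to 43.5 CPM, and fell short of the rule after thinning, with a log2 ratio of -0.55. The guanylate-binding protein Gbp2 fell from 30.5 to 15.4 CPM, the sulfotransferase Chst10 from 21.0 to 9.32 CPM and the splicing factor Srsf5 from 120 to 55.4 CPM. Ooep, known from oocytes, fell from 138 to 73.1 CPM and the carboxypeptidase Cpq from 27.4 to 11.8 CPM. In the list of xenobiotic enzymes 2 of 19 were higher and 4 lower, with a median of -0.10.

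The clock output gene Dbp fell from 54.5 to 17.7 CPM, a ratio of 3.07 (2.61 to 3.62), in 7 of 7 labels and 6 of 6 sub-clusters. Nr1d1, the clock repressor REV-ERB alpha, fell from 18.0 to 6.63 CPM, while Npas2 rose from 3.69 to 6.72 CPM and Cry1 from 9.09 to 14.3 CPM. These were 2 higher and 2 lower of 13 measured clock genes, with a median of -0.36. The hour at which corneas were taken is not given in the sources used here, and its part in these values was not tested. The immediate early gene Egr1 fell from 33.5 to 10.2 CPM, and of 14 such genes 1 was higher and 2 were lower.

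**Figure D4:**
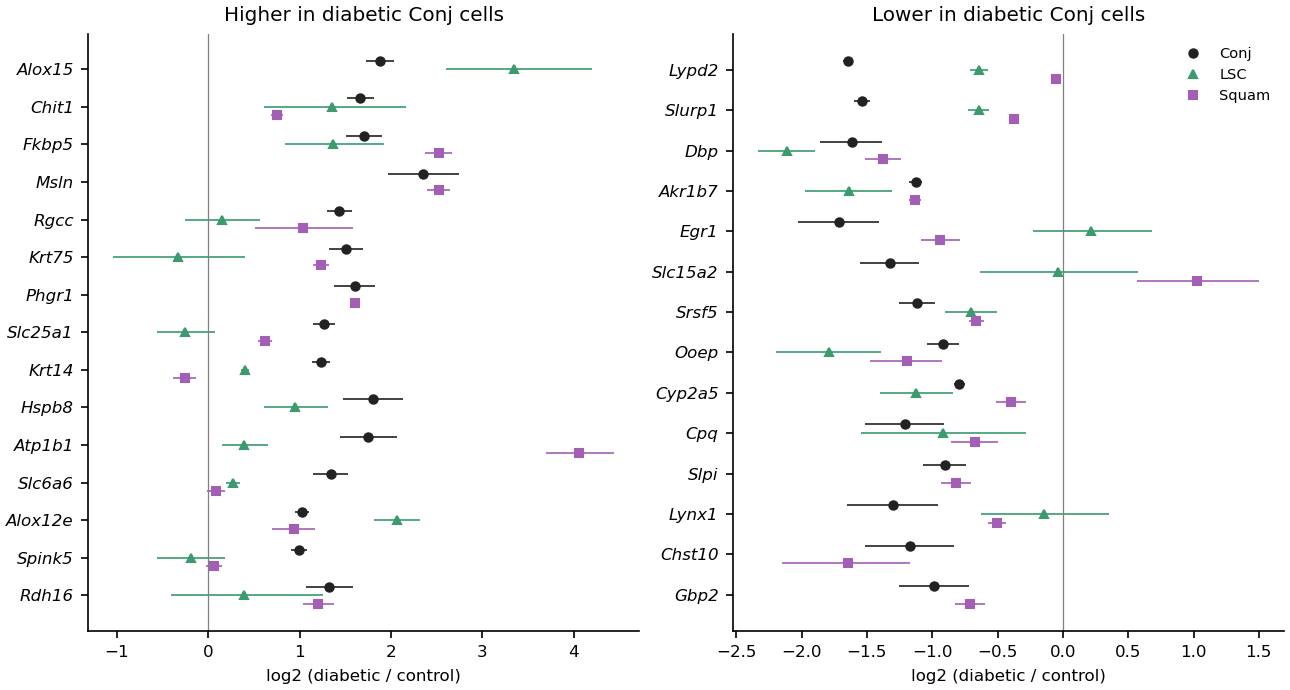
Log2 ratio of diabetic over control with 95% counting intervals for 15 genes higher and 14 genes lower in diabetic Conj cells, in Conj (circles), LSC (triangles) and Squam cells (squares); a label with under 50 summed counts has no point. Fkbp5, Chit1, Dbp and Akr1b7 move the same way in all 3 labels, and Slc15a2 is lower in Conj and higher in Squam.

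Of the 15 genes named as higher in diabetic Conj cells, 6 had a ratio above 1 in all 7 epithelial labels, and 8 of the 14 named as lower had a ratio under 1 in all 7. The labels come from the same pair of libraries. Fkbp5 went from 16.1 to 41.3 CPM in LSC and from 11.9 to 68.3 CPM in Squam cells. Dbp went from 242 to 56.0 CPM in LSC and from 47.0 to 18.1 CPM in Squam cells. Akr1b7 went from 85.8 to 27.6 and from 391 to 178 CPM. Spink5 had 42.7 and 37.4 CPM in LSC and 58.5 and 61.3 CPM in Squam cells, neither past the rule, and Krt14 had 33.0 and 27.6 CPM in Squam cells. Slc25a1 had 59.7 and 50.2 CPM in LSC cells. No difference between labels in these ratios was tested.

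Other lists showed small shifts or none. Of 10 measured inflammatory mediators 3 were higher and none lower: the alarmin Il33 (24.2 to 43.5 CPM), the epithelial cytokine Tslp (5.76 to 11.3 CPM) and Nfkbia. Interferon response genes had none past the rule of 16, with 12 under a ratio of 1 and a median of -0.31. Nuclear oxidative phosphorylation genes had 17 of 18 under a ratio of 1 and a median of -0.18, and none passed the rule. Cytosolic ribosomal protein genes had 22 of 23 above a ratio of 1, with a median of 0.11 and none past the rule. None of 19 cholesterol synthesis genes, 17 antioxidant genes, 17 unfolded protein response genes or 10 MHC class I genes passed it. Hspb1, a small heat shock protein, was the only 1 of 12 chaperones past the rule and fell from 2194 to 1455 CPM. Of 9 measured mucin genes 1 was higher, the galactosyltransferase C1galt1, at 1.62 and 4.84 CPM.

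**Figure D5:**
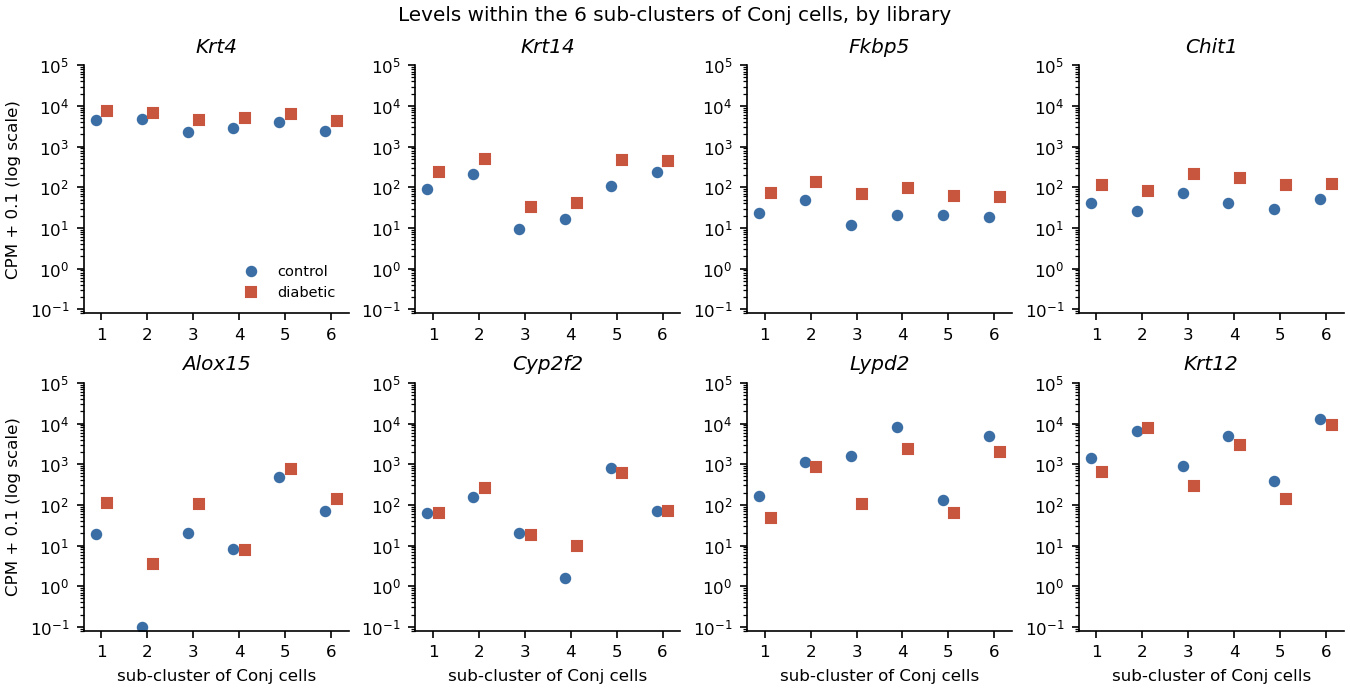
Level of 8 genes (CPM plus 0.1, log axis) in the 6 sub-clusters of Conj cells, control as circles and diabetic as squares, 1 sum per library. Krt4, Krt14, Fkbp5 and Chit1 are higher and Lypd2 lower in the diabetic library in all 6, Alox15 and Cyp2f2 peak in sub-cluster 5, and Krt12 is higher only in sub-cluster 2.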

How the data were processed

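Single-cell libraries of control and diabetic corneal epithelium (enzymatic separation of the sheet, trypsin, Chromium 3′ v3.1, per the labels' protocols) were analysed from the matrix that the authors deposited, which holds whole UMI counts for 17492 genes, not normalized. Cell labels and groups came from the deposited cell table. Its embedding coordinates, scores the authors deposited, were not used. Cell Ranger 5.0.0, Seurat 4 and mm10 appear in the submitters' processing notes with no role given. How cells were filtered is not given in the sources used here.

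Counts were summed per label and library and divided by the total of the sum. CPM have exact 95% Poisson intervals, ratios exact conditional binomial intervals and shares Clopper-Pearson intervals, which cover counting error only. No p-value was computed. The precision follows the depth, 11110166 and 11157926 UMIs in Conj cells. The rules of size (2-fold between labels, 1.5-fold between groups, 50 counts) are given in the report. Only the 1.5-fold rule was tried on simulated data. Those were Poisson counts without variation between cells, pools or libraries, so they do not show how the rule behaves under such variation. Genes were named by rule: the 15 highest over the next epithelial label, the 12 per direction against LSC and against Squam, and the 15 per direction in diabetes, ranked after adding 10 CPM, and up to 4 members of a list. 1 of the genes taken by this rule is not reported here. Genes of ribosomal proteins and of the Y chromosome, Xist and unnamed models were left out, and Krt19, Krt4, Cyp2f2, Krt12, Krt14 and Krt13 were always given. The members, the 34 pathway lists and the 16 marker lists were chosen with earlier results of these data known. Examples within a list, and the genes of sub-clusters and of diabetes beyond these rules, were chosen after their values were seen.

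Sub-clusters used 2000 variable genes, 20 components, 15 neighbours and resolution 0.5, each gene centred within its library. Scrublet's automatic threshold marked 2 cells and had not worked, so the top 8% of scores per library counted as likely doublets and stayed in unless stated. Cells were thinned to 5000 UMIs for shares, leaving out 13 control and 10 diabetic Conj cells. Positions came from GENCODE M21 on GRCm38. Alternatives were scaling by median of ratios, count minimums of 200 and 10, removal of likely doublets, of cells over 10% mitochondrial counts and of the 10% with the most corneal counts, equal weight per cell and per sub-cluster, and thinning. Leaving out sub-cluster 5, sub-cluster 6, or sub-clusters 2, 4 and 6 was chosen after seeing the data. Clustering ran in scanpy 1.11.5 with leidenalg 0.10.2 and scikit-learn 1.9.0, sums and intervals in Python 3.11.15 with pandas 2.3.3, scipy 1.17.1 and numpy 2.4.6, and plots in matplotlib 3.10.9.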

Additional observations from a re-analysis of the deposited data

Results flagged for a closer look

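Some genes moved in opposite directions in the diabetic library in Conj cells and in LSC or Squam cells, both past the rule of size. None of these differences was tested, since each group is 1 library. Id3, a repressor of differentiation factors, was higher in diabetic Conj cells (log2 ratio 1.308, from 6.48 to 16.04 CPM), lower in LSC cells (-0.8486, from 508 to 282 CPM) and lower in Squam cells (-2.096, from 24.9 to 5.82 CPM). In sub-cluster 5 of Conj it went from 30.7 to 76.2 CPM and in sub-cluster 6, where most cells had a high doublet score, from 13.9 to 45.9 CPM.

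Krt17 was higher in Conj (0.8538) and lower in Squam cells (-1.532, from 4.54 to 1.57 CPM). Among the Conj sub-clusters it was also lower in sub-cluster 3, the closest to Squam, from 36.6 to 11.004 CPM. The peptide transporter Slc15a2 was lower in Conj (-1.323) and higher in Squam cells (1.029, from 1.67 to 3.40 CPM). Gstm1, a glutathione transferase, was higher in Conj (0.9558, from 15.6 to 30.2 CPM) and lower in Squam cells (-0.9708, from 4.23 to 2.16 CPM). Cenpf, a kinetochore protein of dividing cells, was higher in Conj (1.3, from 1.71 to 4.21 CPM) and lower in Squam cells (-2.129, from 4.43 to 1.01 CPM). Krt17, Slc15a2, Gstm1 and Cenpf were at under 5 CPM in Squam cells in both libraries.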

How the results depend on the processing

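No paired analysis was possible because each group is 1 library and the labels carry no replicate numbers, and for the same reason no replicate could be left out. Of 420 values of the 35 genes taken for diabetes over 12 settings, 417 kept their call. Of the rest, 2 fell short of the rule (Slpi and Alox12e, given above). Krt12 passed it without sub-clusters 2, 4 and 6, with a log2 ratio of -1.40. Genes past the rule also kept their direction. For Krt19, Krt13, Cyp2f2 and Krt12, which did not pass it, a change of direction short of the rule was not counted. All 264 values against LSC and all 264 against Squam over 11 settings kept direction and call.

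Counts of genes moved more. Under median-of-ratios scaling 1170 genes were higher and 1626 lower than in LSC, and 784 higher and 1068 lower than in Squam. That scaling shifts every ratio, and all 732 genes first called higher than LSC were among the 1170. With a minimum of 200 counts, which leaves fewer genes to test, 136 were higher and 109 lower in diabetic Conj cells, 1439 were lower than in LSC, and 22 pathway list members were higher in diabetic cells, against 38. Thinned to 5000 UMIs the same counts were 135, 85, 1138 and 20, and 7 members were lower against 13; 68 of the 235 and 39 of the 182 genes were called again. Without sub-clusters 2, 4 and 6, 1158 genes were higher than in Squam, and the cause was not tested. Without Immune, TAC1 and TAC2 cells in the denominator Conj cells were 6.07% of control and 6.80% of diabetic cells. At 3000 UMIs 14.6% and 20.1% of Conj cells had a Cyp2f2 UMI. Depth limits genes near the minimum of 50 summed counts, whose intervals are wide.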
